A study of Mus musculus with 6 samples.

Results

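The D-type cyclins with their kinase partner, their inhibitors and 2 replication genes were described in mouse spinal cord as 8 genes: Ccnd1, Ccnd2, Ccnd3, Cdk4, Cdkn1b, Cdkn1c, Pcna and Mcm3. They were taken by symbol from the 8251 genes that the array annotation names with exactly 1 symbol, and they have 12 probe sets on the array. A probe set is the group of short oligonucleotides that reads 1 transcript. The probe set with the highest mean over the arrays stands for its gene. Of the 8 genes, 6 passed the filter on low values and were tested, and each of these 6 was above the filter level on every array. Ccnd2 and Cdkn1b did not pass and are given as values.

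Spinal cord polyadenylated RNA was measured on 6 Affymetrix arrays, 1 for each of 3 genotypes at 110 and at 75 days of age, and each array held RNA of 4 spinal cords. The G93A-SOD1 mice carried superoxide dismutase 1 with the G93A change, known from familial amyotrophic lateral sclerosis, and their strain labels read B6SJL-G93A-SOD1H at 110 days and B6SJL-G93A-SOD1 at 75 days. The WT-SOD1 mice carried the wild-type form of the enzyme, with B6SJL in the strain label at 75 days and no strain label at 110 days. The nontransgenic mice, labelled normal, were B6SJL. Tremor and partial paralysis were recorded by the submitters for G93A-SOD1 mice of 110 days and no symptoms for those of 75 days, and WT-SOD1 mice stayed healthy. WT-SOD1 and nontransgenic arrays are therefore called disease-free below. The promoter that drives the transgenes, the transgenic line and the sex of the mice are not given in the sources used here.

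No genotype and age has a replicate array of its own. Differences of the 110-day or 75-day G93A-SOD1 array were taken from the mean of the 2 disease-free arrays of the same age on the log2 scale, and the spread comes from those 2 pairs of disease-free arrays. The lone G93A-SOD1 arrays are assumed to vary like them. An SE is the moderated standard error of a limma fit across 6737 probe sets, and a gene passed when its Benjamini-Hochberg adjusted p over all of them was under 0.05. Each p measures spread between arrays of pooled cords and of different genotype, not between animals.

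Some facts of the arrays bear on every value that follows. Median intensity lay between 77.7 and 80.9. The mouse Sod1 probe set, which reads the transgene only as far as human transcripts bind it, read 1716 and 1738 in G93A-SOD1 cord at 110 and 75 days, 1906 and 1583 in WT-SOD1 cord, and 1498 and 1037 in nontransgenic cord, so it does not separate the 2 transgenic groups. All 11 spinal Hox genes on the array were above the floor of 31, the intensity under which values have no order. The cholinergic marker Slc18a3 read 160 and 210 in G93A-SOD1 cord at 110 and 75 days and 171 to 207 on the disease-free arrays. The arrays also differed in markers listed for other tissue. The 6 cerebellar markers summed to 1050 and 994 in G93A-SOD1 cord at 110 and 75 days. At those ages they summed to 3360 and 1410 in WT-SOD1 cord and to 1880 and 2860 in nontransgenic cord. Both G93A-SOD1 arrays were thus lowest, so genotype and tissue makeup cannot be told apart in these sums. The origin of the signal was not tested. The 4 pituitary hormone genes summed to 11100 on the WT-SOD1 array of 75 days and to 472 to 547 on the other arrays. Bacterial spike-in controls averaged 834 on the WT-SOD1 array of 110 days and 631 on the nontransgenic array of 75 days, against 351 to 457 on the other 4 arrays. Results were therefore also read without each disease-free array.

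A cell enters the division cycle when D-type cyclins accumulate and activate the kinases Cdk4 and Cdk6. These kinases phosphorylate the retinoblastoma protein, which then releases E2F transcription factors, and E2F switches on genes of DNA replication such as Pcna and the Mcm genes. Inhibitors of the Cip/Kip family, among them the products of Cdkn1b and Cdkn1c, bind cyclin-kinase complexes and hold cells out of division. In adult spinal cord neurons and mature oligodendrocytes no longer divide, while microglia, astrocytes and oligodendrocyte progenitors keep the ability to do so.

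In symptomatic G93A-SOD1 cord at 110 days 0 of 6 tested genes passed the test (limma). All 6 lay above their disease-free mean, beside 44.9% of all probe sets, Ccnd1 by the most and Ccnd3 by only 0.02 on the log2 scale. Across all probe sets 1.51% passed in this comparison, 102 of 6737. At an unadjusted p under 0.05, 2 of the 6 genes stood out, Ccnd1 and Mcm3, as did 10.3% of all probe sets. The median log2 difference of the 6 genes was 0.20, and that of all tested probe sets was -0.021. The 110-day G93A-SOD1 array lay above all 4 disease-free arrays for 4 of the 6 tested genes, Ccnd1, Cdk4, Pcna and Mcm3, and for 16.9% of all tested probe sets. It lay below all 4 for 0 of 6 genes and for 27% of probe sets. Both G93A-SOD1 arrays lay above all 4 disease-free arrays for 2 of 6, Cdk4 and Mcm3, and for 6.25% of probe sets.

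**Figure D1:**
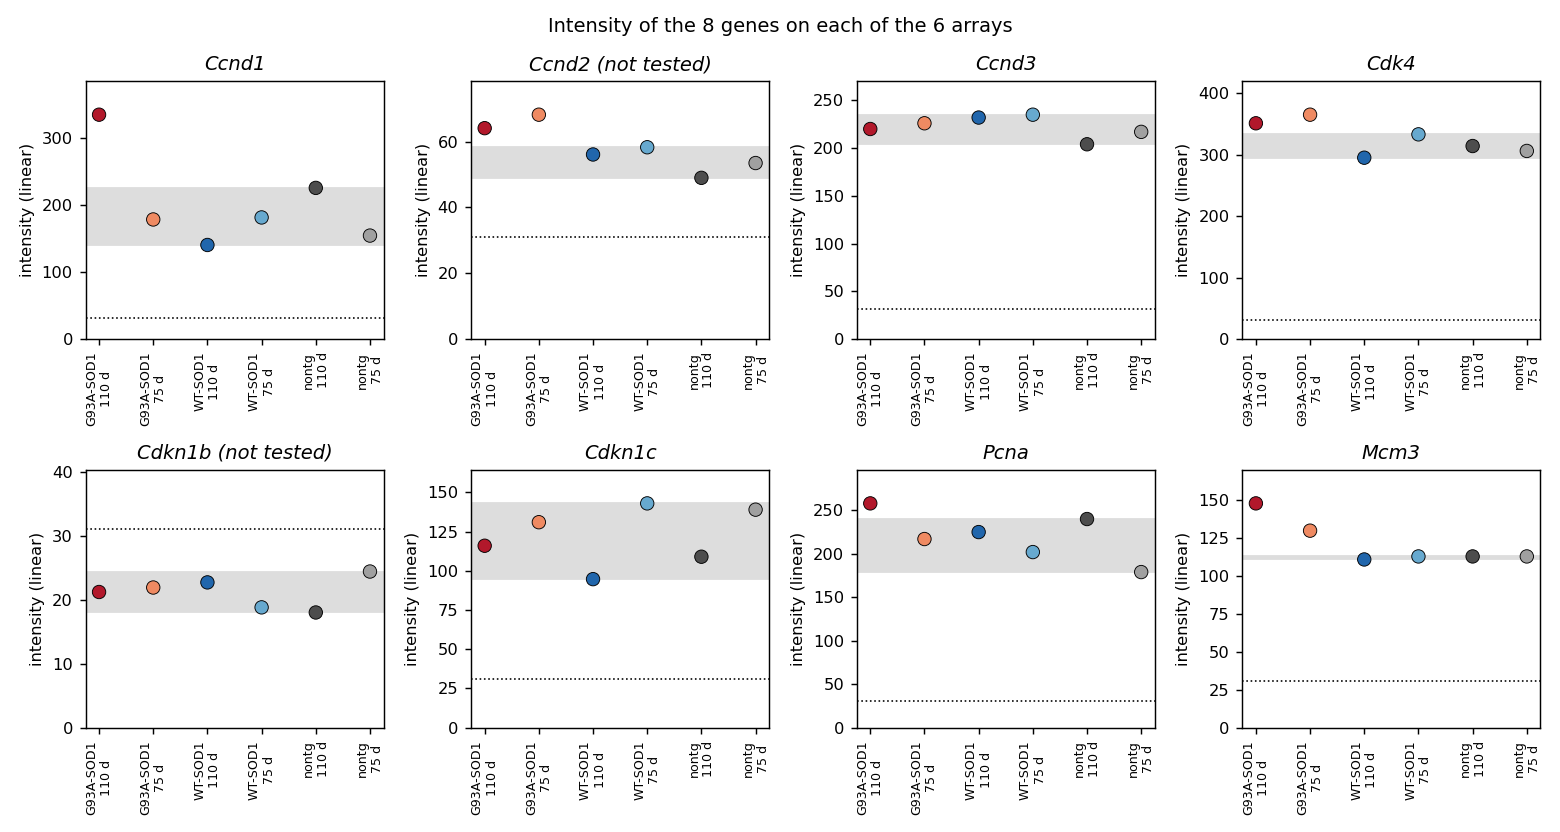
Intensity (linear scale) of the 8 genes on the 6 arrays, 1 point per array, for G93A-SOD1, WT-SOD1 and nontransgenic (nontg) cord at 110 and 75 days. The grey band is the range of the 4 disease-free arrays and the dotted line is the floor of 31. Ccnd1 stands at 334 on the 110-day G93A-SOD1 array, above the band of 140 to 225, Mcm3 on both G93A-SOD1 arrays lies above a band of 111 to 113, and all Cdkn1b values are under the floor.

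Ccnd1 encodes cyclin D1, the D-type cyclin whose transcription responds most directly to growth factor signals. It read 334 and 178 in G93A-SOD1 cord at 110 and 75 days, against 140 and 181 in WT-SOD1 cord and 225 and 154 in nontransgenic cord of the same ages. The 110-day G93A-SOD1 value was thus the highest of the 6, and the 75-day one lay inside the disease-free range. At 110 days Ccnd1 was 1.88-fold above disease-free cord (log2 difference 0.91 ± 0.27 SE, limma adjusted p = 0.246), the 114th largest difference in size of 6737. The 2 disease-free arrays of that age differed from each other by more than for any other of the 6 genes, so the distance was 1.26 on the log2 scale from WT-SOD1 and 0.57 from nontransgenic cord.

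The size of the Ccnd1 difference depended on which disease-free array of 110 days was in the fit. Its log2 difference was 1.26 without the nontransgenic array of 110 days and 0.57 without the WT-SOD1 array of that age. Without either 75-day disease-free array it stayed at 0.91, because those arrays enter only the spread. Some of these fits called Ccnd1. Each has fewer residual degrees of freedom and takes its spread from the disease-free arrays of 1 age, so a call can change for that reason alone. Leaving out the WT-SOD1 array of 110 days leaves the nontransgenic one, whose spike-in level of 457 is close to the 405 of the 110-day G93A-SOD1 array. That of the WT-SOD1 array is 834. With the spike-in level as a covariate the log2 difference of Ccnd1 at 110 days was 0.59 and did not pass (adjusted p = 0.105). The slope of that covariate comes only from the disease-free arrays, whose order by spike-in level is also their order by summed cerebellar markers. The covariate thus cannot be told apart from tissue makeup or from genotype at each age, here and for the genes below. This fit also has fewer residual degrees of freedom.

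A further probe set of Ccnd1 gave a smaller difference of the same sign. It read 128 and 98.9 in G93A-SOD1 cord at 110 and 75 days, against 107 and 104 in WT-SOD1 cord and 93.9 and 111 in nontransgenic cord. The 110-day G93A-SOD1 array was again the highest of the 6, but among disease-free arrays the nontransgenic one of 110 days was the lowest here and the highest in the first probe set. The log2 difference at 110 days was 0.35 ± 0.15 SE (limma adjusted p = 0.48).

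Neither Ccnd2 nor Ccnd3 passed at either age, and Ccnd2 was read with no filter. Ccnd2, encoding cyclin D2, read 64.1 and 68.2 in G93A-SOD1 cord at 110 and 75 days, against 56.1 and 58.3 in WT-SOD1 cord and 49.0 and 53.5 in nontransgenic cord. Both G93A-SOD1 values were above all 4 disease-free ones, by a log2 difference of 0.29 from the disease-free mean at either age, and all 6 lay under the filter level of 79.7. Tested with no filter, Ccnd2 gave an adjusted p of 0.852 at 110 days and 0.716 at 75 days (limma). Ccnd3, encoding cyclin D3, read 220 and 226 in G93A-SOD1 cord at 110 and 75 days, within the disease-free range of 204 to 235. Its log2 difference was 0.02 ± 0.15 SE at 110 days and 0.00 ± 0.15 SE at 75 days (limma adjusted p = 1 and 0.998).

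Cdk4, the kinase that D-type cyclins activate, read 351 and 365 in G93A-SOD1 cord at 110 and 75 days, against 295 and 333 in WT-SOD1 cord and 314 and 306 in nontransgenic cord. Both G93A-SOD1 values were above all disease-free ones, at a log2 difference of 0.20 ± 0.14 SE at either age, and neither passed (limma adjusted p = 0.76 at 110 days and 0.664 at 75 days). With the spike-in covariate the 110-day difference was 0.13. The gene's dimmer probe set read 44.5 and 44.1 in G93A-SOD1 cord and 40.7 to 44.2 on the disease-free arrays, under the filter level.

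**Figure D2:**
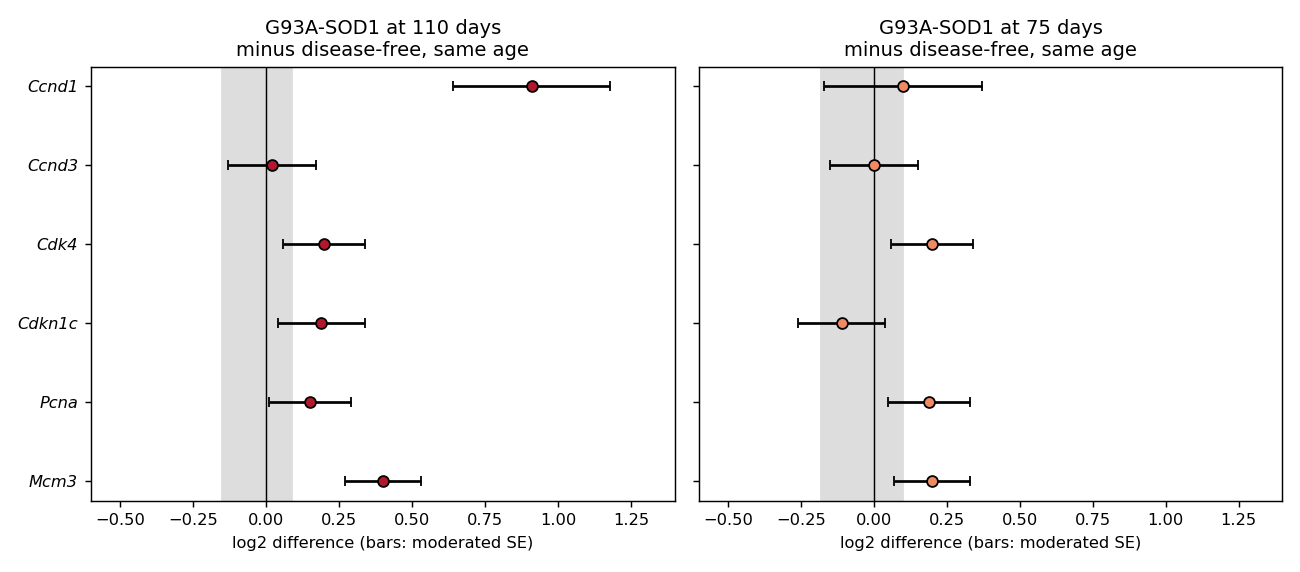
Log2 difference of the G93A-SOD1 array from the mean of the 2 disease-free arrays of the same age, at 110 days (left) and 75 days (right), for the 6 tested genes. Bars are moderated SE, and the grey band holds the middle 50% of all 6737 probe sets. Ccnd1 stands at 0.91 at 110 days and 0.10 at 75 days, and Mcm3 at 0.40 and 0.20.

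Of the inhibitors, Cdkn1b was too dim to test and Cdkn1c did not pass at either age. Cdkn1b read 21.2 and 21.9 in G93A-SOD1 cord at 110 and 75 days and 18.0 to 24.4 on the disease-free arrays, all under the floor of 31, and its other probe set read 7.88 to 12.6 over the 6 arrays. No order can be read from these values. Cdkn1c read 116 and 131 in G93A-SOD1 cord at 110 and 75 days, against 94.7 and 143 in WT-SOD1 cord and 109 and 139 in nontransgenic cord. Its log2 difference was 0.19 ± 0.15 SE at 110 days and -0.11 ± 0.15 SE at 75 days (limma adjusted p = 0.829 and 0.841). With 1 disease-free array left out the 110-day difference ran from 0.08, without the WT-SOD1 array of that age, to 0.29, without the nontransgenic one, and with the spike-in covariate it was 0.10.

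Mcm3 encodes a subunit of the helicase that unwinds DNA at replication origins. It read 148 and 130 in G93A-SOD1 cord at 110 and 75 days, against 111 and 113 in WT-SOD1 cord and 113 and 113 in nontransgenic cord. Both G93A-SOD1 arrays were above all 4 disease-free arrays, which differed among themselves by less than for any other of the 6 genes. The log2 difference was 0.40 ± 0.13 SE at 110 days, or 1.32-fold (limma adjusted p = 0.307), and 0.20 ± 0.13 SE at 75 days (adjusted p = 0.637). At 110 days it was 0.39 to 0.41 with any 1 disease-free array left out, and none of those fits called it. The probe set that stands for Mcm3 has an identifier ending in _s_at, a class that can read more than 1 transcript. A further probe set read 47.2 on the 110-day G93A-SOD1 array and 24.6 to 30.1 on the other 5, which were all under the floor.

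**Figure D3:**
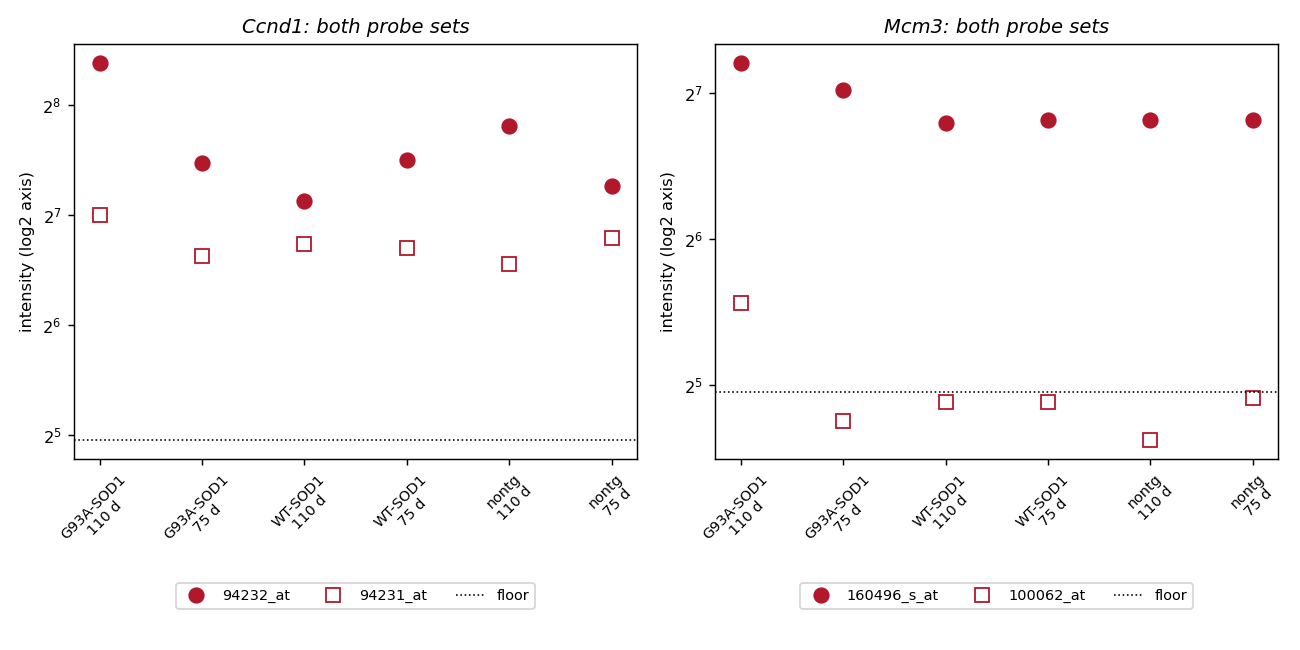
Intensity on a log2 axis of both probe sets of Ccnd1 (left) and of Mcm3 (right) on each of the 6 arrays, with the floor of 31 as a dotted line. For both genes each probe set is highest on the 110-day G93A-SOD1 array, and the dimmer Mcm3 probe set is above the floor on that array alone, at 47.2.

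Pcna encodes the sliding clamp that holds DNA polymerase on its template. It read 258 and 217 in G93A-SOD1 cord at 110 and 75 days, against 225 and 202 in WT-SOD1 cord and 240 and 179 in nontransgenic cord. The 110-day G93A-SOD1 array was the highest, and in each genotype the 110-day value was above the 75-day one. Its log2 difference between G93A-SOD1 and disease-free cord was 0.15 ± 0.14 SE at 110 days and 0.19 ± 0.14 SE at 75 days (limma adjusted p = 0.901 and 0.673). With 1 disease-free array left out it ran from 0.10 to 0.20 at 110 days and from 0.11, without the nontransgenic array of 75 days, to 0.28 at 75 days, and with the spike-in covariate it was 0.06 at 110 days.

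The start regions of the 2 replication genes are shown because E2F acts on such genes there. RefSeq promoter windows (GRCm38.p6) reach from 250 bases before the start site to 50 after it, and 5 of the 8 genes have at least 1 such window here. The windows were searched on both strands for the E2F words TTTCCCGC, TTTCGCGC, TTTGCCGC and TTTGGCGC, which 2.26% of 32851 mouse windows hold. Of 6 windows of these genes (Ccnd3 has 2), 1 held a word, that of Mcm3. Capitals mark its words, which do not overlap: GCGGGAAA, the reverse complement of TTTCCCGC, begins at base 20 after the start site, and TTTGGCGC begins at base 39. The Mcm3 window lies at chr1:20820263-20820562 and the Pcna window at chr2:132253131-132253430, both on the minus strand, and each is written from 5′ to 3′ along its gene. A match is a description of the letters and not evidence of binding.
Mcm3: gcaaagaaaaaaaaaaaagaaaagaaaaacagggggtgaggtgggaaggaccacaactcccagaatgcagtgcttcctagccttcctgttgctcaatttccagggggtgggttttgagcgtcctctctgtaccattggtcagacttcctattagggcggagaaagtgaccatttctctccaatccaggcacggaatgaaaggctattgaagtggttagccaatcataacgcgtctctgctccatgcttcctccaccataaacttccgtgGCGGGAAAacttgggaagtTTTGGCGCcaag
Pcna: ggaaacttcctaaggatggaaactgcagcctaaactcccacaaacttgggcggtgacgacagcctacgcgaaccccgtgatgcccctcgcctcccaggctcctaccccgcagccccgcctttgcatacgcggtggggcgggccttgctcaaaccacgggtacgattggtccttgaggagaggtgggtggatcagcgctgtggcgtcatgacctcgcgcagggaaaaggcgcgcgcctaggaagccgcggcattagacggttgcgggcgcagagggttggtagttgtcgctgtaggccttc

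Before symptoms, at 75 days, none of the 6 tested genes passed. Their log2 differences from disease-free cord ran from -0.11 for Cdkn1c to 0.20 for Cdk4 and Mcm3. Above 0 were 5 of 6, beside 42.5% of all probe sets. The median was 0.15, and that of all probe sets was -0.037. None of the 6 had an unadjusted p under 0.05 (limma), and 0% of all probe sets passed, although 664 of 6737, or 9.86%, had an unadjusted p under 0.05. The 75-day G93A-SOD1 array lay above all 4 disease-free arrays for 2 of 6 genes, Cdk4 and Mcm3, and for 23.9% of probe sets.

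Whether the G93A-SOD1 difference itself changed between the ages was tested directly. It was larger at 110 than at 75 days by 0.82 ± 0.38 SE on the log2 scale for Ccnd1 (limma adjusted p = 0.853). On the G93A-SOD1 arrays alone Ccnd1 was 1.87-fold higher at 110 days than at 75 days, a ratio of 1 array to 1 array. The change was 0.29 for Cdkn1c, 0.20 for Mcm3 and between -0.04 and 0.01 for Ccnd3, Cdk4 and Pcna. None of the 6 passed, beside 0.416% of all probe sets, and none had an unadjusted p under 0.05, beside 6.23% of all. The change for Ccnd1 depended on the 110-day disease-free arrays. It was 1.16 without the nontransgenic one and 0.47 without the WT-SOD1 one. Without the WT-SOD1 or the nontransgenic array of 75 days it was 0.70 or 0.93. With the spike-in covariate it was 0.64 and did not pass. With 1 disease-free array left out the change for Cdkn1c ran from 0.19 to 0.40. Calls of fits with 1 array left out are not read here, because they have fewer residual degrees of freedom.

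None of the 6 tested genes passed for age in disease-free cord, and their largest differences, of Cdkn1c and Pcna, had opposite signs. Cdkn1c read 94.7 and 109 on the 110-day WT-SOD1 and nontransgenic arrays, against 143 and 139 on the 75-day ones, so the ages did not overlap. The log2 difference of 110 from 75 days was -0.47 ± 0.12 SE (limma adjusted p = 0.998), the 57th largest in size of 6737, and the G93A-SOD1 arrays had the same order, with 116 at 110 days and 131 at 75 days. Both 110-day disease-free arrays lay below both 75-day ones for 1 of 6 genes, Cdkn1c, and for 14% of all probe sets, which is close to the same share. Pcna read 225 and 240 on the 110-day WT-SOD1 and nontransgenic arrays, against 202 and 179 on the 75-day ones, a log2 difference of 0.29 ± 0.12 SE (limma adjusted p = 0.998). Both 110-day arrays lay above both 75-day ones for 1 of 6 genes, Pcna, and for 15.2% of probe sets, again close to the same share. In this comparison 0 of 6 genes passed, beside 0.0148% of all probe sets, while 2 of 6 had an unadjusted p under 0.05, beside 3.1% of all. The other 4 genes lay between -0.07 and 0.09. The age and G93A-SOD1 comparisons share the disease-free arrays.

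WT-SOD1 cord was set against nontransgenic cord in a separate fit that holds the 4 disease-free arrays and a term for age, in which 1 spread is pooled over all probe sets. None of the 6 genes passed, beside 0.104% of all probe sets, and none had an unadjusted p under 0.05 (limma), beside 1.17% of all. The 4 pituitary hormone genes, high only on the WT-SOD1 array of 75 days, were among the probe sets that passed. Ccnd1 had a log2 difference of -0.23 ± 0.19 SE (adjusted p = 1), made of -0.69 at 110 days and 0.23 at 75 days. The other 5 genes lay between -0.09 and 0.15, with Ccnd3 at 0.15 ± 0.19 SE.

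The rest of the division machinery was read from 5 lists with 97 genes, of which 84 are on the array with 1 symbol and 44 were tested. None of the 44 passed in the 110-day comparison, beside 1.51% of all probe sets, which is close to the same share. None had an unadjusted p under 0.05 (limma), beside 10.3% of all. Of the 44, 22 lay above 0, beside 44.9% of all probe sets, and their median log2 difference was 0.00. Among 8 tested G1 kinases, cyclins and activators the median was -0.04, with Ccng2 at -0.32 and Ccng1, a p53 target gene, at 0.29. Ccng1 exceeded the filter level of 79.7 only on the 110-day G93A-SOD1 array, at 81.6, so it was tested only because it was high there. Among 2 tested further CDK inhibitors Cdkn2d stood at -0.10 and Cdkn1a, the Cip/Kip inhibitor that p53 induces, at 0.09 in the probe set that stands for it and at -0.11 in another. Of the pocket protein and E2F genes 3 were tested, with E2f1 at -0.12 and E2f5 at 0.09, while Rb1, Rbl1 and Rbl2 did not pass the filter. Among 17 genes of replication the median was 0.01, with the helicase subunit gene Mcm5 at 0.26 and the thymidine kinase gene Tk1 at 0.21. Among 14 genes of S phase to mitosis the median was 0.07, with the proliferation marker gene Mki67 at 0.31 and Stmn1, a microtubule regulator gene that neurons also express, at -0.29. The probe sets of E2f1, Mcm5, Mki67 and, named below, Tfdp1 have identifiers ending in _f_at or _r_at, classes that can read other transcripts. In the other 4 comparisons 0 of 44 passed as well, beside 0% to 0.416% of all probe sets, again close to the same share. At an unadjusted p under 0.05 there were 4 of 44 at 75 days (E2f1, Tfdp1, Ccnb2 and Mki67), beside 9.86% of all probe sets, which is close to the same share. E2f1, at 84.3, and Mki67, at 88.7, exceeded the filter level only on the 75-day G93A-SOD1 array and so were tested only through the array where they are highest. There was 1 of 44 for the change of the difference between ages, beside 6.23% of all, 0 for age, beside 3.1%, and 1 for WT-SOD1, beside 1.17%.

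**Figure D4:**
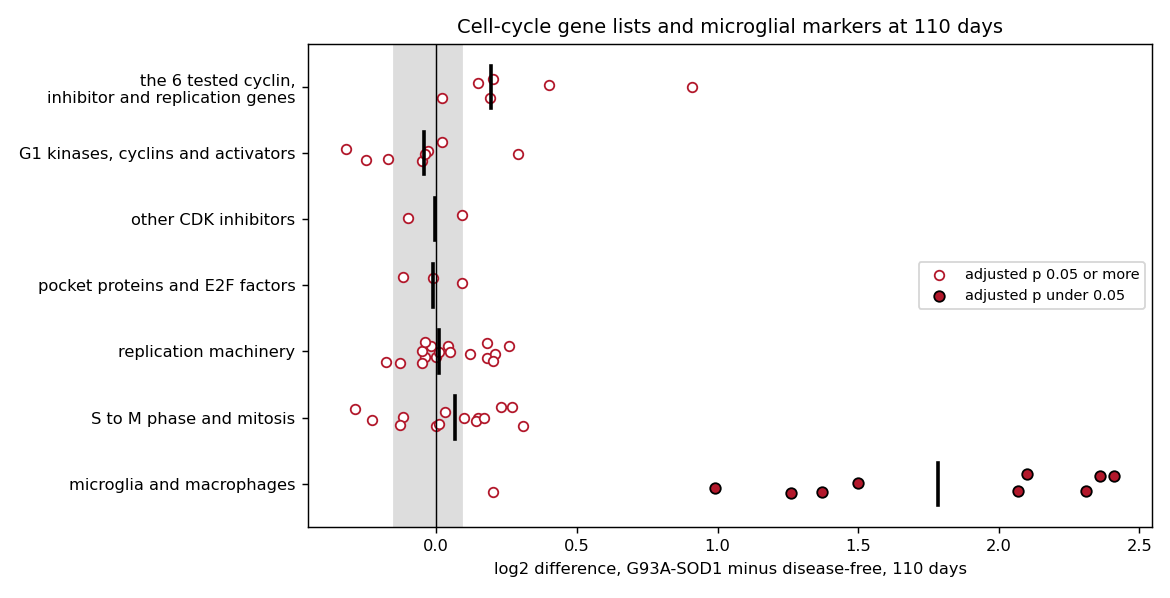
Log2 difference of the 110-day G93A-SOD1 array from disease-free cord of the same age for tested genes, 1 point per gene, in the rows named at left. Filled points passed the test, thick lines are medians, and the grey band holds the middle 50% of all 6737 probe sets. The 5 lists of division genes centre between -0.04 and 0.07, while 9 of 10 microglial markers passed.

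Markers of microglia and some of astrocytes differed on the array on which Ccnd1 and Mcm3 were highest, that of G93A-SOD1 cord at 110 days. Of 10 tested microglia and macrophage markers 9 rose at 110 days and 0 fell, with a median log2 difference of 1.79. Among them C1qc, a complement subunit gene, stood at 2.10 (limma adjusted p = 0.000984) and the growth factor receptor gene Csf1r at 1.37 (adjusted p = 0.0106), while Cx3cr1, a receptor gene of resting microglia, was the exception at 0.20 (adjusted p = 0.899). Aif1, among the 9, exceeded the filter level only on the 110-day G93A-SOD1 array, at 95.5, while Itgam, Ptprc and Fcgr3 stayed under it on every array and were not tested. The 13 such markers on the array summed to 8900 and 2570 in G93A-SOD1 cord at 110 and 75 days and to 2240 to 2740 on the disease-free arrays, and 1 of them, Ptprc, was under the floor on every array. Of 8 tested astrocyte markers 2 rose, Gfap and Fabp7, and the 9 on the array summed to 13500 and 9850 in G93A-SOD1 cord and to 9010 to 10200 on the disease-free ones. Of 6 genes listed for oligodendrocyte progenitors, 2 are on the array with 1 symbol, Pdgfra and Sox10. Pdgfra read 369 and 316 in G93A-SOD1 cord at 110 and 75 days and 304 to 363 on the disease-free arrays. Sox10 read 463 and 534 in G93A-SOD1 cord and 383 to 471 on the disease-free arrays. Neither passed at 110 days, with log2 differences of 0.15 and 0.20. Of 6 tested oligodendrocyte markers 0 passed at 110 days, with a median of -0.23. The 8 neuron markers summed to 7240 and 8270 in G93A-SOD1 cord and to 9000 to 10500 on the disease-free ones, and 1 of the 8, Nefm, fell at 110 days. The part of these cell types in the values of Ccnd1 and Mcm3 was not tested. In RNA of whole cord, more cells of a type and more RNA per cell cannot be told apart.

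The genes whose pattern over the 6 arrays was most like that of a division gene were taken among tested genes with at least 0.5 of its range. For Ccnd1 these were Tmed3 (Pearson r = 0.989), Spata13 (0.964) and Bhlhe40 (0.957) among 802 genes. Tmed3 read 227 and 155 in G93A-SOD1 cord at 110 and 75 days, against 132 and 155 in WT-SOD1 cord and 180 and 130 in nontransgenic cord, and as for Ccnd1 the 110-day G93A-SOD1 array was highest and the 110-day nontransgenic one next. For Mcm3 they were Gna13 (0.976), Cebpb (0.976), a transcription factor gene induced in inflammation, and Wwtr1 (0.972) among 4488. Cebpb read 92.3 and 62.2 in G93A-SOD1 cord at 110 and 75 days and 47.1 to 51.8 on the disease-free arrays. Cebpb and Wwtr1, the latter at 91.3, exceeded the filter level only on the 110-day G93A-SOD1 array. They were thus compared only through the array where they and Mcm3 are highest, which limits what their r can show. For Cdk4 they were Trim27 (0.993), Mmp14 (0.973) and Fgfr1 (0.973), for Pcna Cyb5a (0.983), Rexo2 (0.961) and Rpn2 (0.955), for Cdkn1c Dlgap4 (0.955), Ly6h (0.918) and Sema4a (0.918), and for Ccnd3 Utp3 (0.983), Ciita (0.976) and Gm10046 (0.971). Ciita exceeded the filter level only on the WT-SOD1 array of 75 days, at 82.6, where Ccnd3 is highest as well. Among the 8 genes themselves the highest r was 0.81, for Ccnd2 and Cdk4, followed by 0.78 for Ccnd1 and Mcm3, 0.77 for Cdk4 and Mcm3, 0.74 for Ccnd2 and Mcm3 and 0.73 for Ccnd1 and Pcna. The lowest was -0.64, for Cdkn1c and Pcna, and Cdkn1b has none because it is at the floor. Each r describes 6 arrays, which all genes share together with their spike-in level and tissue makeup.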

How the data were processed

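Per the labels' protocols, RNA of 4 cords per array was extracted with Trizol, enriched for poly(A), labelled with biotin and hybridised and scanned once. The authors deposited 1 linear intensity per probe set and array. Their probe summary, background correction and scaling are not given in the sources used here. Of 12488 rows, 66 control probe sets were left out, 18 of them bacterial spike-ins read as quality values. Array medians lay within 0.059 on the log2 scale, so intensities were not rescaled. Values under the 25th percentile, 31, were set to that floor before taking log2. A probe set was tested if 1 array exceeded the pooled median of 79.7, which left 6737. Gene symbols came from the platform annotation through Entrez identifiers: 1 symbol was found for 10833 of the remaining 12422 probe sets, more than 1 for 396 and no symbol for 1193. Of those with 1 symbol 10817 matched the reference gene table, and 0 symbols changed.

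limma 3.58.1 in R 4.3.3 (lmFit, eBayes) fitted 4 means (disease-free and G93A-SOD1 at each age) with 2 residual degrees of freedom, and WT-SOD1 against nontransgenic on the 4 disease-free arrays with 1. The fit was run on simulated data in which all arrays vary alike, so the assumption about the lone G93A-SOD1 arrays was not tested. p-values were adjusted by Benjamini-Hochberg over all tested probe sets. Named genes are the 8 genes, Sod1, the 2 tested genes of each division list farthest from 0 at 110 days, glial and other cell markers, and the 3 genes of most similar pattern. Genes named for an unadjusted p at 75 days were picked after their values were seen. Genes and lists were chosen with earlier results of these data known. Alternatives were another scaling, floor and filter, a WT-SOD1 term, a spike-in covariate, leaving out arrays and other probe sets. The number of arrays limits the precision.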

Additional observations from a re-analysis of the deposited data

How the results depend on the processing

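No paired analysis was possible because each genotype and age has 1 array and the labels carry no replicate numbers that could pair them, although the WT-SOD1 comparison has age as a term and 1 alternative of the other comparisons has a WT-SOD1 term. The count of the 6 tested genes that passed stayed at 0 in all 5 comparisons under the other scaling, floor and filter, and in 4 of them under the model terms, which were not run for WT-SOD1 against nontransgenic. With 1 disease-free array left out only the call for Ccnd1 changed, at 110 days and for the change between ages of the G93A-SOD1 difference. Those fits and the ones with a model term have fewer residual degrees of freedom than the main fit. Calls and counts in them can therefore move, or fail to, for that reason alone. With the same probe set the log2 difference of Ccnd1 at 110 days ran over all alternatives from 0.57 to 1.26, and it was 0.59 with the spike-in covariate. That of Mcm3 ran from 0.39 to 0.41.

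Differences that turned in sign passed under no setting. With arrays scaled to 1 median the change with age was -0.02 for Ccnd3 and -0.02 for Cdk4, the age difference of Mcm3 was 0.02, and the WT-SOD1 difference of Cdk4 was 0. At 75 days Ccnd1 stood at -0.01 with the WT-SOD1 term, -0.05 with the spike-in covariate and -0.12 in its other probe set, which also gave -0.10 for age and 0.05 for WT-SOD1. The change for Cdk4 was -0.03 with the spike-in covariate. With 1 disease-free array left out, Ccnd3 ran from -0.07 to 0.11 at 110 days, from -0.05 to 0.06 at 75 days, from -0.08 to 0.11 for the change and from -0.14 to 0.04 for age. In the same fits Ccnd1 ran from -0.02 to 0.22 at 75 days and from -0.25 to 0.44 for age, Cdk4 from -0.05 to 0.07 and Pcna from -0.13 to 0.04 for the change, and Mcm3 from -0.02 to 0 for age. The cause was not tested.

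Counts of all probe sets that passed varied more. At 110 days 102 became 66 with the higher floor, 42 with no filter, 234 with the spike-in covariate, and 148 to 591 with 1 array left out. At 75 days 0 became 50 with no filter, 54 with the WT-SOD1 term and 13 to 116 with 1 array left out. For the change, 28 became 2 with scaling, 3 with the higher floor, 76 with no filter, 70 with the WT-SOD1 term, 75 with the spike-in covariate and 51 to 135 with 1 array left out. For age, 1 became 0 with no filter, 15 with the WT-SOD1 term, 4 with the spike-in covariate and 2 to 17 with 1 array left out. For WT-SOD1, 7 became 0 with scaling, with the higher floor and with no filter. With no filter the dimmer Mcm3 probe set passed at 110 days (log2 difference 0.61, adjusted p = 0.00457), where the other 5 arrays sit at the floor and so have no spread. Signal close to the floor limits Cdkn1b, Ccnd2 and this probe set.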
